A study of Mus musculus with 4 samples.

Results

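Long acetylated stretches were defined here as runs of H3K27ac peaks on 1 chromosome, joined wherever the gap between neighbouring peaks was 12.5 kb or less. They were selected on their length alone, 120 kb or more from first to last base. H3K27ac is histone H3 acetylated at lysine 27. Of 20708 such runs in the list, 646 (3.12%) were that long, and the 2977 runs from 30 kb to just under 120 kb serve as the background. The material was the cardiac ventricles of wild-type C57BL/6 mice at postnatal day 6. The ventricles of 10 hearts were pooled for each immunoprecipitation, so the lists describe a mixture of all ventricular cell types over several animals. Chromatin immunoprecipitation was done with antibodies against H3K27ac, GATA4 and TCF7L2, at 2 µg each, and 1 peak list was analysed per antibody, with 75011, 10530 and 774 peaks. An input sample belongs to the series and was not analysed here.

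Acetylation of H3 at lysine 27 marks promoters and enhancers in use, and a place with many acetylated elements side by side is often described as a super-enhancer or a stretch enhancer. Such places are known to be common around genes that give a cell type its identity. Joining nearby elements across short gaps is the usual first step in finding them; the second step ranks them by signal, and the lists hold no signal, so the stretches below are ranked by length alone. GATA4 is a zinc-finger transcription factor needed for heart formation and for cardiomyocyte gene expression. TCF7L2 is a DNA-binding partner of beta-catenin in Wnt signalling.

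The stretches were chosen by positions in the H3K27ac list alone. What follows on their length, acetylated share and place is therefore a description, whereas the GATA4 and TCF7L2 positions were not used by the rule. The lists give no counts, so read depth is unknown, and with 1 list per antibody no value has a replicate error. The intervals given are 95% intervals of counting error, which treat peaks as independent. For GATA4 this makes them too narrow: the Pearson dispersion of counts over stretches, near 1 for independent peaks, was 1.80 in long and 1.37 in background stretches. The gene table at hand is for another genome build than the mm9 positions of the lists. No stretch was therefore assigned to a gene, and the tissue was not checked against marker genes.

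The 646 long stretches together spanned 125.8 Mb, or 4.88% of the genome between the first and last called positions. They held 34.9% of all acetylated bases and 21.1% of all H3K27ac peaks. Their median length was 166 kb, with quartiles of 138 and 220.04 kb. Of these, 234 were shorter than 150 kb and 67 reached 300 kb. A typical long stretch joined 23 H3K27ac peaks (median; range 3 to 118), against 8 in the background.

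Long stretches were filled with acetylation to very different degrees. The acetylated share of the length ran from 29.7% to 97.2%, with a median of 68.5% and quartiles of 59.0% and 77.6%. In the background the median was 54.3% and the range 6.91% to 100%. Fewer than 50% of the bases were acetylated in 61 long stretches (9.44%) and in 1242 background stretches (41.7%). Across the 646 long stretches the share rose weakly with length (Spearman's rho 0.19, computed from the same peaks on both axes).

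**Figure D1:**
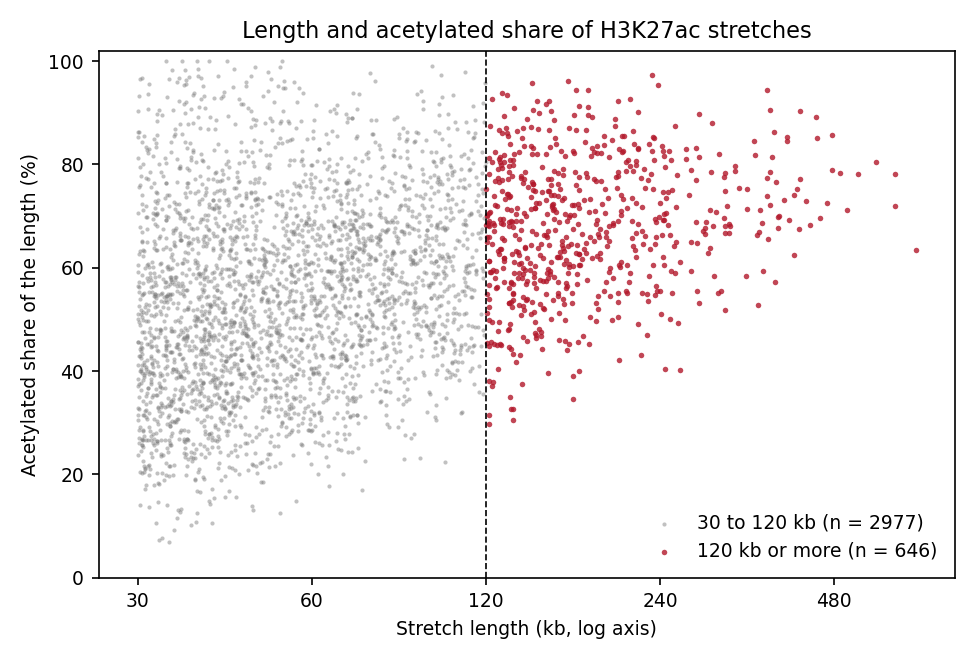
Each point is 1 stretch, placed by its length in kb (log axis) and by the percentage of its bases inside H3K27ac peaks; red points are the 646 stretches of 120 kb or more and grey points the 2977 of 30 to 120 kb. The lower edge of the cloud rises with length, from 6.91% in the background to 29.7% in the long stretches.

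At the top of this range, a stretch on chromosome 1 from 73948132 to 74180330 was 97.2% acetylated. It was made of 3 peaks, and 1 of them spanned 225 kb, or 96.9% of the stretch. A similar stretch on chr4:45409992-45554357 was 95.9% acetylated, with a single peak of 134 kb over 92.9% of it. The other 3 of the 5 fullest were on chr15:27395164-27561667 (96.1%), chr19:53712041-53950261 (95.4%) and chr7:139844417-140016320 (94.4%). Each of these was divided among 6 or 7 peaks, the widest of which made up 53.0%, 40.6% and 41.2% of the length.

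At the bottom, a stretch of 121 kb on chr13:35831903-35953376 had 24 peaks over 29.7% of its length, the widest only 7.63 kb. Those on chr1:57830487-57964162, chr8:96353936-96475253, chr10:93461211-93593843 and chr16:29712382-29845935 had 20 peaks each and shares of 30.6% to 32.7%. All 5 of these sparse stretches were held together by a gap of 11.9 kb or more, close to the largest gap that was joined. They are chains of small peaks, unlike the near-continuous blocks at the other end of the range.

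Single broad peaks rarely made a long stretch alone. The widest peak of a long stretch had a median width of 32 kb and took a median of 17.6% of the length. It took 50% or more in only 34 stretches, and in 17 it reached 120 kb by itself. Of the 15821 H3K27ac peaks in long stretches, 6336 (40.05%) were narrower than 1 kb, yet these held 3.50% of the acetylated bases. The 522 peaks of 30 kb or more held 31.5%, against 11.9% for such peaks in the background. The gaps were short, with a median of 1.29 kb and quartiles of 0.695 and 3.37 kb.

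How many stretches are long depends on the gap allowed. A gap above 10 kb was present in 340 of the 646 (52.6%), so that a limit of 10 kb would cut them. Such a gap was also present in 1153 background stretches (38.7%), which hold fewer gaps each. Counted per gap the order was reversed, with 3.53% of gaps above 10 kb in long and 5.96% in background stretches. With gaps of up to 6 kb there were 258 stretches of 120 kb or more, with a median acetylated share of 84.9%. With gaps of up to 3 kb there were 114, with a share of 94.0%. Of the 646, 247 (38.2%) still contained a stretch of 120 kb or more at 6 kb, and 107 (16.6%) did so at 3 kb.

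The limit of 120 kb divides a continuous range. The 3 shortest long stretches were on chr18:50136853-50257088, chr2:29474475-29594717 and chr8:35065137-35185451, from 120.2 to 120.3 kb, with acetylated shares of 75.3%, 68.3% and 70.1%. They held 3, 0 and 6 GATA4 peaks. Just outside were stretches on chr8:126753751-126873687, chr7:52067992-52187470 and chr9:63488862-63608220, from 119.4 to 119.9 kb. Their shares were 80.5%, 79.8% and 95.7%, and they held 2, 5 and 0 GATA4 peaks. The GATA4 counts of these stretches overlap across the limit, while the shares of the 3 just below it are all higher than those of the 3 just above.

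Long stretches were spread over every autosome but unevenly. Chromosome 11 had the most, 61, or 0.514 per Mb, followed by chromosome 19 with 25 (0.429 per Mb) and chromosome 17 with 32 (0.347 per Mb). Chromosome 1, the longest, had 30, and its 0.155 per Mb was the lowest among the 19 autosomes, whose median was 0.274 per Mb. Chromosome 13 was next lowest, with 19 stretches or 0.162 per Mb, although it carried the longest of all. The X chromosome had 1, of 129 kb (0.00612 per Mb). Background stretches were also densest on chromosome 11 (2.004 per Mb) and scarcest on X (0.190 per Mb). Long stretches made up 10.2% of the span of chromosome 11 and 2.76% of that of chromosome 1.

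**Figure D2:**
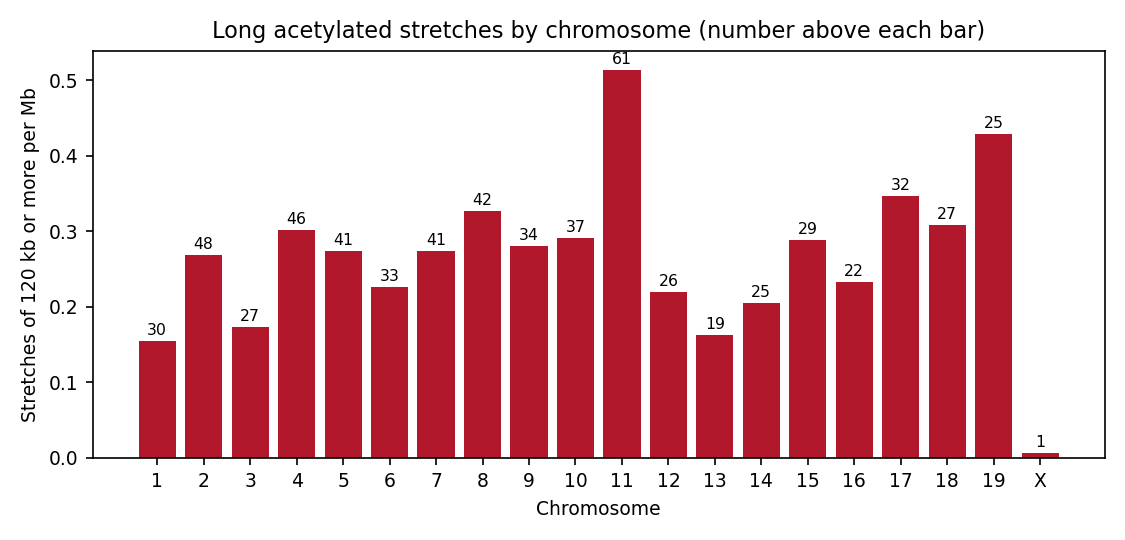
Bars give the number of stretches of 120 kb or more per Mb of each chromosome between its first and last called positions, with their number printed on top. Chromosome 11 stands highest with 61 stretches and X lowest with 1.

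Some long stretches were close neighbours, at rates somewhat above those of the background, a difference that was not tested. Of the 645 with another on the same chromosome, 59 (9.15%) had it within 25 kb and 129 (20%) within 100 kb, while for 230 (35.7%) it was more than 1000 kb away. Of the background stretches, 7.29% had a long one within 25 kb, 16.7% within 100 kb and 39.5% none within 1000 kb. The median distance was 439 kb, against 623 kb from a background stretch to the nearest long one. Runs of 3 with less than 100 kb between them occurred at 5 places. The longest run covered 952 kb on chromosome 2 from 165604710 to 166556915, of which 922 kb lay in long stretches. It held 15 GATA4 peaks and 0 TCF7L2 peaks.

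The 10 longest stretches ran from 466 to 664 kb and were acetylated over 63.5% to 85.7% of their length. They held 5 to 18 GATA4 peaks and 0 to 4 TCF7L2 peaks each. The longest, on chromosome 13 from 11644175 to 12308232, joined 118 H3K27ac peaks, the most of any, and was the least acetylated of the 10. Cut into 3 equal lengths, it was acetylated over 42.5% of the first, 66.8% of the middle and 81.2% of the last segment. All of its 10 GATA4 peaks lay in the last segment, between 450.1 and 582 kb from its start.

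GATA4 peaks were placed differently in the others of this group. The stretch on chr6:72129126-72741391 (612 kb) was 70.2% to 72.9% acetylated in each segment, and its 11 GATA4 peaks were divided 5, 4 and 2. The stretch of 612 kb on chr8:122511532-123123368 held 13, divided 3, 5 and 5, with 1 TCF7L2 peak. On chr11:87842284-88408892 (567 kb), 1 peak of 241 kb filled 42.6% of the stretch but held only 5 of the 16 GATA4 peaks. The last segment there was 99.2% acetylated and held 4 GATA4 peaks, and the first segment, 77.0% acetylated, held 8. In this stretch the most acetylated segment was therefore not the one with the most GATA4 peaks.

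A second stretch on chr8:124397948-124903784 (506 kb) held 10 GATA4 peaks, 8 of them in the last segment and 6 in its widest H3K27ac peak of 51.8 kb. That on chr2:165604710-166132392 (528 kb) held 9, 5 of them in the middle segment. The stretch on chr5:125467933-125958317 (490.4 kb) held 14, divided 3, 5 and 6, while its first segment was the most acetylated at 94.4%. Those on chr19:56976432-57451877 (475 kb) and chr7:119569148-120035431 (466 kb) had 0 GATA4 peaks in the first segment and 7 and 5 in all. A further stretch on chr8:128996619-129472471 (476 kb) was the fullest of the 10 at 85.7% and had the most GATA4 peaks (18) and TCF7L2 peaks (4).

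**Figure D3:**
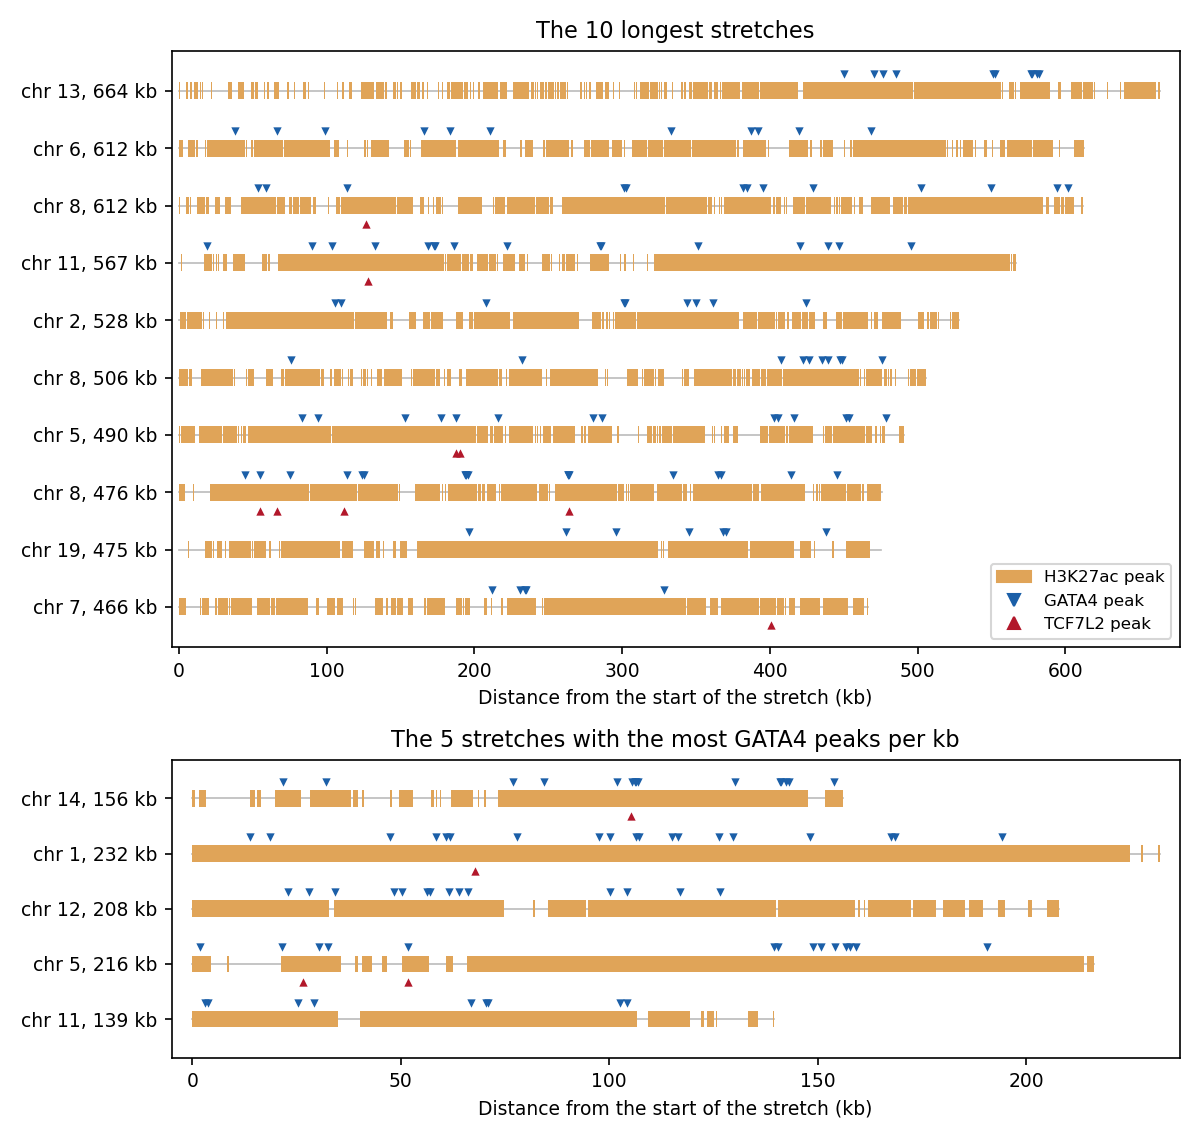
Each row is 1 stretch, drawn to scale from its start in kb: orange bars are H3K27ac peaks, blue triangles GATA4 peaks and red triangles TCF7L2 peaks. The upper panel shows the 10 longest stretches and the lower panel the 5 with the most GATA4 peaks per kb; in the top row the 10 GATA4 peaks lie beyond 450.1 kb.

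GATA4 was found in nearly all long stretches. At least 1 GATA4 peak lay in 589 of 646 (91.2%, Wilson interval 88.7 to 93.1), against 1673 of 2977 background stretches (56.2%, 54.4 to 57.97). A longer stretch has more room for a peak, so these shares are not comparable without the length. The number held ranged from 0 to 22 with a median of 3; 109 long stretches held 1, 334 held 2 to 5, 114 held 6 to 9 and 32 held 10 or more. Together they held 2412 GATA4 peaks, 22.9% of the list.

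Per kb of length, GATA4 was close to the background. Long stretches held 0.0192 GATA4 peaks per kb (exact Poisson interval 0.0184 to 0.01995) and background stretches 0.01795 (0.0173 to 0.0186). The ratio was 1.07 (exact interval 1.01 to 1.13). An interval widened by 1 dispersion pooled over both groups (1.45) was 1.002 to 1.14. The long stretches had a higher dispersion, 1.80, so a lower end this close to 1 does not settle that there is an excess. The ratio is close to 1 and was not above it under every definition. Joining gaps of up to 6 kb gave 0.987 (0.918 to 1.06), and leaving out chromosome 1 gave 1.05 (0.993 to 1.11). Other definitions gave a larger ratio, 1.16 (1.11 to 1.22) with gaps of up to 25 kb and 1.11 (1.04 to 1.19) with long stretches from 180 kb. The share of stretches with GATA4 was 47.5% at 30 to 60 kb, 86.8% at 120 to 180 kb, 97.9% at 180 to 240 kb and 96.8% at 240 kb or more, while the density stayed between 0.0175 and 0.01999 per kb in all 6 classes of length. From the shortest to the longest class the median acetylated share also rose, from 50.5% to 71.2%, and the median widest peak from 8.93 to 46.5 kb. Their part in the share with GATA4 was not tested.

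Per acetylated kb, GATA4 was sparser in long stretches. Of their 2412 GATA4 peaks, 2367 (98.1%) had the midpoint inside an H3K27ac peak, a density of 0.0273 per acetylated kb (0.0262 to 0.0284). The background had 0.0313 (0.0301 to 0.0324), and the ratio was 0.873 (0.827 to 0.922). The direction is thus opposite to the 1.07 per kb of stretch, the denominators differing by the acetylated share, 68.9% of the pooled length in long and 56.3% in background stretches. By class of length the density was 0.0328 per acetylated kb at 30 to 60 kb, 0.0303 at 60 to 90 kb and 0.0299 (0.0278 to 0.0321) at 90 to 120 kb. In long stretches it was 0.0269 at 120 to 180 kb, 0.0282 (0.0260 to 0.0306) at 180 to 240 kb and 0.0271 at 240 kb or more. Part of the fall thus lay within the background. Against a background from 60 kb the ratio was 0.906 (0.851 to 0.965).

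**Figure D4:**
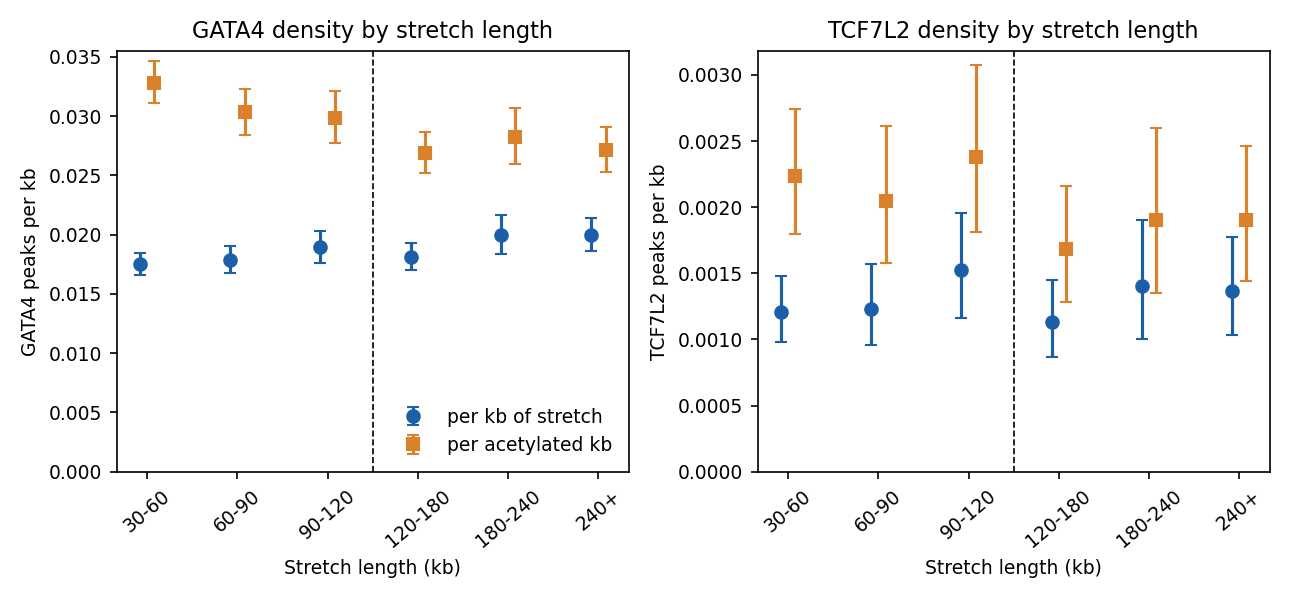
Points give GATA4 (left) and TCF7L2 (right) peaks per kb of stretch (circles) and per acetylated kb (squares) in 6 classes of stretch length in kb, with exact 95% Poisson intervals of counting error; the dashed line marks 120 kb. For GATA4 the circles stay between 0.0175 and 0.01999 per kb, while the squares are lower to the right of the line (0.0269 to 0.0282) than to its left (0.0299 to 0.0328).

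The width of the H3K27ac peak mattered for this comparison, because GATA4 was denser in broad than in narrow peaks, and long stretches hold more of the broad ones. At matched width the difference from the background was larger. Over 5 classes of H3K27ac peak width, the Mantel-Haenszel ratio of GATA4 density in long over background stretches was 0.772 (0.730 to 0.817). This ratio was computed after the data were seen. With an interval that takes in the spread between stretches it was 0.775 (0.724 to 0.828), and it lay between 0.753 and 0.785 when each chromosome was left out in turn. Against a background from 60 kb it was nearer to 1, at 0.823 (0.772 to 0.878).

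As a ratio, the difference was larger for H3K27ac peaks under 3 kb than for those of 10 kb or more. H3K27ac peaks under 1 kb held 6 GATA4 peaks among 6336 in long stretches, or 0.00198 per kb, and 36 among 11230 in the background, or 0.00685 per kb, a ratio of 0.289 (0.0994 to 0.692) that rests on those 6. For peaks of 1 to 3 kb the densities were 0.00695 and 0.0167, a ratio of 0.415 (0.294 to 0.576). In peaks per kb, however, the gap was widest at 3 to 10 kb, 0.0213 against 0.0315, and smallest under 1 kb. The ratio was 0.676 (0.604 to 0.756) at 3 to 10 kb, 0.851 (0.780 to 0.928) at 10 to 30 kb and 0.848 (0.759 to 0.949) at 30 kb or more. Even the broadest peaks of long stretches thus held fewer GATA4 peaks per kb than equally classed peaks of the background, 0.0351 against 0.0414. Within the class of 30 kb or more the widths still differ, since a peak of the background cannot reach 120 kb.

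**Figure D5:**
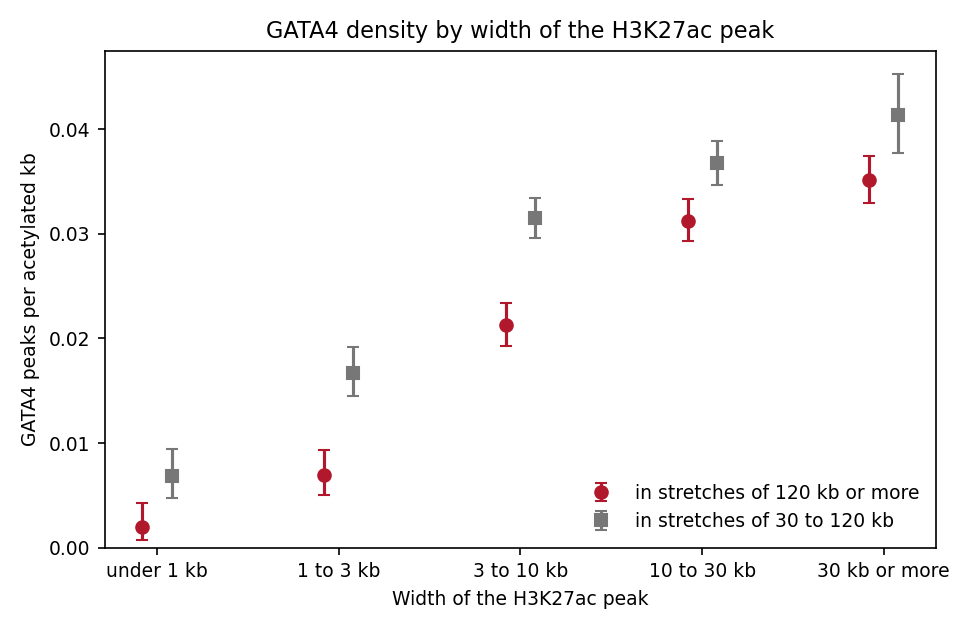
Points give GATA4 peaks per acetylated kb in 5 classes of H3K27ac peak width, in stretches of 120 kb or more (red circles) and of 30 to 120 kb (grey squares), with exact 95% Poisson intervals of counting error. Density rises with peak width in both groups and the red point is lower in each class.

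The H3K27ac peaks compared at 1 width differ in their neighbours. At 10 to 30 kb, 1491 of the 1767 peaks in long stretches were not the widest of their own stretch, against 665 of 2078 in the background. Without the widest peak of each stretch, the matched ratio was 0.724 (0.666 to 0.786). In the class of 30 kb or more this left 165 peaks in long and only 4 in background stretches, with a ratio of 2.31 (0.632 to 19.2). The value of 0.724 therefore rests on the narrower classes and cannot speak for the broadest peaks. Narrow peaks of long stretches also lay closer to the next H3K27ac peak. Among peaks under 3 kb, 9927 in long and 17906 in background stretches, the median width was 691 and 692 bp, but the median gap to the nearest peak was 806 and 926 bp. Their GATA4 densities were 0.00536 (0.00399 to 0.00705) and 0.0137 (0.0121 to 0.0156) per kb, a ratio of 0.390 (0.283 to 0.530). In both groups GATA4 was densest in the narrow peaks 3 kb or more from the next, 0.0156 and 0.0261 per kb. The ratio was 0.383 (0.229 to 0.616) at gaps under 1 kb, 0.390 (0.183 to 0.758) at 1 to 3 kb and 0.598 (0.340 to 0.995) at 3 kb or more.

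Inside long stretches GATA4 lay mainly in the broad peaks. Of the 2367 acetylated GATA4 peaks, 923 lay in H3K27ac peaks of 10 to 30 kb and 960 in those of 30 kb or more. These classes held 34.0% and 31.5% of the acetylated bases. The widest peak of each stretch held 945 of the 2367 (39.9%) on 30.6% of the acetylated bases. Its density was 0.0357 per kb against 0.0236 in the other peaks, a ratio of 1.51 (1.39 to 1.64), and the same ratio in the background was 1.48 (1.37 to 1.59). Only 1494 of the 15821 H3K27ac peaks (9.44%) held GATA4 at all, and 468 of these held 2 or more, which together accounted for 56.7% of the acetylated GATA4 peaks. In the gaps between peaks GATA4 was rare: 45 peaks on 39.1 Mb, or 0.00115 per kb, a 23.7-fold lower density than in the acetylated part. Over 5 zones of equal length from the ends to the centre, GATA4 density was 0.0186, 0.0183, 0.0198, 0.0182 and 0.0209 per kb, highest in the central zone (0.0192 to 0.0228). Per acetylated kb the outermost zone was highest, 0.0299 against 0.0289 in the central zone, their acetylated shares being 62.2% and 72.4%. In the background the outermost zone was the highest per kb, 0.0221 against 0.0186 in the central zone. The differences between zones were not tested.

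Stretches that were more fully acetylated held more GATA4 per kb, while per acetylated kb no difference was shown. In the 162 long stretches with the lowest share (29.7% to 59.0%), GATA4 density was 0.0140 per kb (0.0127 to 0.0155), and in the 162 with the highest (77.7% to 97.2%) it was 0.0240 (0.0224 to 0.0257). Their ratio was 1.71 (1.51 to 1.94) per kb and 1.07 (0.941 to 1.21) per acetylated kb, an interval that leaves room for a difference. In 4 groups from the lowest to the highest share, the density per acetylated kb was 0.0266, 0.0250, 0.0283 and 0.0284. Grouped instead by the widest peak's share of the length, it was 0.0249 (0.0228 to 0.0272) in the lowest group and 0.0312 (0.0290 to 0.0335) in the highest. Across the 646 stretches the acetylated share and GATA4 per kb had a Spearman's rho of 0.29, and in the background it was 0.30; both measures share the stretch length.

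The 5 long stretches richest in GATA4 were of moderate length. They were picked for their GATA4 density, so the intervals given for them do not test an excess over other stretches. The highest density, 0.0961 per kb (0.0538 to 0.159), was on chromosome 14 from 55480466 to 55636474, where 156 kb held 15 GATA4 peaks and 1 TCF7L2 peak. Of these 15, 12 lay in its widest H3K27ac peak (74.5 kb, 55553730 to 55628212). They formed tight groups there. One group held 4 peaks between 55585431 and 55587555, and the first of these, 826 bp wide, overlapped the TCF7L2 peak (55585559 to 55585694). Another held 4 peaks between 55621279 and 55623720. The nearest other long stretch was 7754 kb away.

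In the stretch on chromosome 1 named above (73948132 to 74180330), all 19 GATA4 peaks lay in the single peak of 225 kb, 0.0818 per kb (0.0493 to 0.128). They were scattered from 13.8 to 194 kb from the start, and its 1 TCF7L2 peak (74015805 to 74016001) overlapped none of them. On chr12:88109019-88316810, 14 GATA4 peaks gave 0.0674 per kb, 8 of them in an H3K27ac peak of 40.8 kb that was not the widest. The stretch on chr5:122820444-123036763 (14 GATA4 and 2 TCF7L2 peaks) had 0.0647 per kb, with 9 GATA4 peaks in an H3K27ac peak of 148 kb. That on chr11:86705071-86844558 (9 GATA4 peaks, 0.0645 per kb) had 5 in its widest peak. In all 5 of these stretches every GATA4 peak lay inside an H3K27ac peak, as did 98.1% of the GATA4 peaks of all long stretches.

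TCF7L2 was present in 133 of 646 long stretches (20.6%, Wilson interval 17.6 to 23.9) and in 202 of 2977 background stretches (6.79%, 5.94 to 7.75). Per kb the densities were close: 0.00127 peaks per kb (0.00108 to 0.00148) in long and 0.00129 (0.00113 to 0.00147) in background stretches, or 1 peak per 786 and 775 kb. The ratio of 0.985 had an interval from 0.799 to 1.21, which leaves room for a difference in either direction. Its direction changed with the definition of a long stretch, and joining gaps of up to 25 kb gave 1.26 (1.04 to 1.54). TCF7L2 over GATA4, the ratio of the ratios was 0.922 (0.743 to 1.14), and no difference between the factors was shown.

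Per acetylated kb the TCF7L2 density was 0.00181 in long and 0.00221 in background stretches, a ratio of 0.818 (0.662 to 1.01). At matched H3K27ac peak width it was 0.777 (0.626 to 0.963), close in size to the GATA4 value of 0.772. With 157 acetylated TCF7L2 peaks in long stretches this rests on few peaks, and leaving out chromosome 6, 7 or 11 took the interval past 1, with ratios of 0.819, 0.810 and 0.811. So did gaps of up to 3 or 25 kb (0.735 and 0.896), long stretches from 90 or 180 kb (0.856 and 0.823), a background from 60 kb (0.791) and leaving out factor peaks narrower than the median (0.748). The narrow H3K27ac peaks of long stretches held 1 TCF7L2 peak among 6336 under 1 kb and 2 among 3591 of 1 to 3 kb. The background had 4 among 11230 and 15 among 6676. The ratios of density, 0.433 (0.00879 to 4.38) and 0.250 (0.0277 to 1.07), have intervals that take in 1.

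Long stretches with TCF7L2 were also richer in GATA4. Of the 133, 129 held GATA4 as well, and their GATA4 density was 0.0243 per kb (0.0226 to 0.0261) against 0.0175 (0.0167 to 0.0184) in the 513 without TCF7L2, a ratio of 1.39 (1.27 to 1.52). They were also longer, with a median of 206 kb against 161 kb, and more acetylated, 72.0% against 67.4% at the median. The part of these in the GATA4 difference was not tested. In the background the ratio was 1.52 (1.36 to 1.69). Both factors met at the same place in 56 of the 160 TCF7L2 peaks of long stretches (35%, 28.04 to 42.7) and in 90 of 222 of the background (40.5%, 34.3 to 47.1), an odds ratio of 0.790 (exact interval 0.506 to 1.23).

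The most TCF7L2 peaks in a long stretch, 4, were in that of 476 kb on chr8:128996619-129472471. They were at 129051394 to 129051602, 129062643 to 129062830, 129108562 to 129108722 and 129260267 to 129260687. The first and the last of these overlapped GATA4 peaks, the last of them 2, and the first pair shared the widest H3K27ac peak of 66.5 kb. A stretch of 210.5 kb on chr10:127667392-127877852 had 3 TCF7L2 peaks, of which 2 overlapped GATA4 and 1 (127699493 to 127699682) lay in a gap between H3K27ac peaks. Its neighbour in this ranking, 428 kb on the same chromosome (79225102 to 79653335), also had 3, 1 of them on GATA4, and 22 GATA4 peaks, the most of any long stretch.

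Those on chr2:29474475-29594717 and chr12:111674838-111795525 held 2 TCF7L2 peaks each in little more than 120 kb. Among the stretches tied at 2 they were named for the highest TCF7L2 density per kb. On chromosome 2 there was no GATA4 peak, so this was 1 of only 4 long stretches with TCF7L2 and without GATA4. On chromosome 12 the TCF7L2 peaks (111723922 to 111724122 and 111724248 to 111724376) lay side by side in an H3K27ac peak of 38.0 kb, and the first overlapped 1 of the stretch's 2 GATA4 peaks.

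No GATA4 peak was called in 57 long stretches, and 53 had neither factor. Those without GATA4 were shorter than the 589 with it, with medians of 143 and 171 kb, and less acetylated, 59.2% against 69.1%. Their widest H3K27ac peak had a median of 21.5 kb against 33.3 kb. A shorter or less acetylated stretch has less room for a GATA4 peak, and the part of this in the count of 0 was not tested. The longest without either factor were on chr6:115788844-116105583 (317 kb, 68.0% acetylated) and chr10:92605326-92921117 (316 kb, 68.4%). They were followed by stretches on chr6:87047465-87306891 (259 kb, 61.1%), chr4:62218449-62425205 (207 kb, 82.6%) and chr2:71459331-71654994 (196 kb, 68.04%). These 5 were picked for their count of 0, and the exact upper limit for GATA4 in the longest is 0.0116 per kb. The acetylated shares of these 5 lay on both sides of the 68.5% median of long stretches, and their widest H3K27ac peaks measured 19.2 to 81.7 kb. The only long stretch of the X chromosome, 129 kb, also held neither factor.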

How the data were processed

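The authors deposited 1 peak list for each of H3K27ac, GATA4 and TCF7L2, with chromosome, start and end in bp and no other value, score or height. Per the labels each antibody had 2 biological replicates. The way they became 1 list, and the peak threshold, is not given in the sources used here. Per the submitters' processing notes the tools included Bowtie2 2.2.6.2 and MACS2 2.1.1.20160309.0, and the build was mm9. Positions are printed 1-based.

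H3K27ac peaks were joined across gaps of up to 12500 bp. A factor peak was counted in the stretch or H3K27ac peak that held its midpoint. Densities carry exact Poisson intervals, their ratios exact conditional (Clopper-Pearson) intervals, and odds ratios exact conditional intervals; a ratio was called where its 95% interval left out 1. No p-values were computed. Other gap limits, length limits, counting rules and widths, and leaving out each chromosome, were tried as alternatives. Ratios over classes of H3K27ac peak width used the Mantel-Haenszel estimate, or a Poisson fit clustered on stretches, and were added after the data were seen. Counting was tested on simulated data. Members, lists and regions named were chosen with earlier results of these data known. Named regions are the 10 longest stretches, the 5 richest in GATA4 per kb, the 5 with the most TCF7L2 (ties by TCF7L2 peaks per kb), the 5 longest without either factor, the 5 highest and 5 lowest in acetylated share, and 3 on each side of 120 kb. The X stretch and the run of 3 were chosen after their values were seen. Calculations used scipy 1.17.1, statsmodels 0.14.6, pandas 2.3.3 and numpy 2.4.6 under Python 3.11.15.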

Additional observations from a re-analysis of the deposited data

How the results depend on the processing

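Of 220 recomputed values, 156 under planned settings and 64 under settings added after the data were seen, 180 kept their direction and their side of the threshold. The GATA4 ratio at matched H3K27ac peak width did so in all 29 of its settings, and the GATA4 ratio per acetylated kb in 30 of 31, the exception being gaps of up to 3 kb (0.932). For each ratio, 20 of the settings only leave out 1 chromosome and keep most of the data. The setting of autosomes only repeats that without X, and the ratio per acetylated kb over width classes repeats the matched-width ratio. These tallies are therefore not counts of independent checks. The GATA4 ratio per kb of stretch was 0.976, 0.987 and 1.16 with gaps of up to 3, 6 and 25 kb, the last of these called. It was 1.08 and 1.11, both called, with long stretches from 90 and 180 kb, and 1.05 and not called with a background from 60 kb. Without each chromosome it was 1.05 to 1.08 and not called without chromosome 1 or 10.

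The TCF7L2 ratio per kb, never called below 1, turned to 1.26 with gaps of up to 25 kb, 1.09 with long stretches from 90 kb and 1.07 from 180 kb, and was 0.956 to 1.03 without each chromosome, above 1 without 6, 7, 11 or 19. TCF7L2 over GATA4 turned to 1.09 with gaps of up to 25 kb (1.085 before rounding) and 1.01 (1.0085) from 90 kb. The TCF7L2 ratio per acetylated kb was called with gaps of up to 6 kb (0.717) and over width classes (0.777), and was 0.793 to 0.858 without each chromosome, called without 9, 13, 15 or 18. At matched width TCF7L2 was 0.735 and 0.896 with gaps of up to 3 and 25 kb, 0.856 and 0.823 with long stretches from 90 and 180 kb, 0.791 with a background from 60 kb and 0.748 with factor peaks of the median width or wider, all no longer called, and 0.750 to 0.819 without each chromosome.

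The number of long stretches was 114, 258 and 1300 with gaps of up to 3, 6 and 25 kb, and 1035 and 267 from 90 and 180 kb; their median acetylated shares were 94.0%, 84.9%, 47.4%, 66.25% and 70.7%. Fewer or more stretches follow from these definitions themselves; the cause of the other changes was not tested. No paired analysis was possible because each antibody has 1 list.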
